A study of Mus musculus with 6 samples.

Results

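The pluripotency genes Pou5f1, Sox2, Utf1 and Sall4 were followed through the open chromatin of mouse ESCs, D-EPSCs and L-EPSCs. The 4 genes were chosen by name among 22359 protein-coding genes, with earlier results of these data known, and their members are all ATAC-seq peaks that lay from 20 kb before to 20 kb after a gene, with the window of Sox2 drawn out to 120 kb downstream to take in its distant enhancer. These windows held 19 of the 28965 peaks of ESCs, 32 of the 50225 peaks of D-EPSCs and 29 of the 46601 peaks of L-EPSCs. Peaks of the 3 lists that overlapped by at least 1 bp were merged, which gave 37 regions around the 4 genes out of 65518 in the genome.

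ATAC-seq uses the Tn5 transposase to cut accessible DNA, so that reads pile up where chromatin is open. The ESCs were of the J1 line (strain 129SV), grown in serum medium with LIF and the inhibitors CHIR99021 and PD0325901, and both kinds of EPSCs were converted from them. D-EPSCs were grown in N2B27 medium with knockout serum replacement (KSR), LIF, CHIR99021, dimethindene maleate and minocycline hydrochloride, and L-EPSCs in DMEM/F12 medium with KSR, LIF, CHIR99021, PD0325901, A-419259, XAV939, JNK inhibitor VIII and SB203580. ESCs and L-EPSCs could be grown on mouse embryonic fibroblast feeders or on gelatin, and the study's methods state that both EPSC kinds were passaged without feeders before they were used for ATAC-seq. There were 6 libraries, 2 technical replicates per state, all from 1 cell line. Peak positions came as 1 list per state, without heights or values per replicate. The sequencing depth behind each list is unknown here. The values below are therefore descriptions of 3 lists, with no replicate error and no test, and more open chromatin in a state cannot be told apart from deeper sequencing of it.

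Pou5f1 encodes Oct4, the POU factor without which the inner cell mass is not kept, and Sox2 encodes the HMG-box factor that binds DNA beside it. The pair recognises a composite Oct-Sox element found in enhancers of many pluripotency genes, their own included. Utf1 encodes a chromatin-associated protein of undifferentiated cells and is a classic target of the pair. Sall4 encodes a zinc-finger factor that binds near many of the same genes and helps to keep Pou5f1 expressed. Pou5f1 is controlled by a distal enhancer, used in naive ESCs and germ cells, and by a proximal enhancer, used in the epiblast. Sox2 has the regulatory regions SRR1 and SRR2 close to the gene and a control region (SCR) far downstream, and the enhancer of Utf1 lies just 3′ of its gene.

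An Oct-Sox element lay under peaks at the enhancers of 3 of the 4 genes, and the stretches that hold it are shown because they lie in known enhancers, of which SRR2 of Sox2 differed between the lists. The element was searched as TTGTNATGC, where N is any base, on both strands of the mm9 genome. Each sequence runs 5′ to 3′ in the direction in which its gene is transcribed. Capitals mark the Oct-Sox match, any Sox match (CCNTTGT), which may overlap it, and any Zfp281 match (CCCCTCCCC).
Pou5f1 distal enhancer, chr17:35640928-35641076, + strand: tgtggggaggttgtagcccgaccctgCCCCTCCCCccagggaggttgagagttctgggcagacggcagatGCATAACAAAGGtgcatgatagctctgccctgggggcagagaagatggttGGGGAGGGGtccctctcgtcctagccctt
Sox2 SRR2, chr3:34552866-34553081, + strand: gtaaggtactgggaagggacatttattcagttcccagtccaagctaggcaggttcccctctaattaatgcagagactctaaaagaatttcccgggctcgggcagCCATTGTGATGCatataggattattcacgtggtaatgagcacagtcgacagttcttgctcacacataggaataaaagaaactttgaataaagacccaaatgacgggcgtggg
Utf1 3′ enhancer, chr7:147131520-147131647, + strand: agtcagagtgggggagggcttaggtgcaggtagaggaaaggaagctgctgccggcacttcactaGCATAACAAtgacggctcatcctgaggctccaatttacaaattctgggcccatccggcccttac

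The match at Pou5f1 (chr17:35640998-35641006, TTGTTATGC on the - strand) stood at -1984 bp from the main start, where a peak of every list covered it. The match at Utf1 (chr7:147131584-147131592, TTGTTATGC on the - strand) stood 1896 bp after the start, outside the gene, and was likewise under a peak of every list. At Sox2 the match (chr3:34552973-34552981, TTGTGATGC on the + strand) stood 4046 bp after the start and was under a peak of D-EPSCs and of L-EPSCs but of no ESC peak. The Oct-Sox matches of Pou5f1 and Utf1 were thus in open chromatin in all 3 states by these lists, and that of Sox2 in the EPSC lists alone. A match is a stretch of letters and does not show that a factor was bound.

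The 4 genes had a peak at a start in each list. A peak lay within 1 kb of the start of at least 1 coding transcript for 4 of 4 genes in ESCs, D-EPSCs and L-EPSCs, where 51.5%, 63.4% and 60.8% of all protein-coding genes had one. Counted from the main start alone, which is that of the longest coding transcript, the number was 3 in the ESC list and 4 in each EPSC list, against 48.8%, 60.8% and 58.1% of genes. The gene without such a peak in ESCs was Pou5f1, whose nearest ESC peak was 1796 bp from the main start. Pou5f1 has 7 annotated coding starts, and its call in ESCs came from a peak inside the gene beside another of them. The base of the main start itself was under a peak for 2, 3 and 3 of the genes, against 37.8%, 53.3% and 49.7% of genes. Utf1 and Sall4 were covered at this base in every list, Sox2 in the EPSC lists, and Pou5f1 in none.

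The bases just before the main starts of Pou5f1, Sox2 and Utf1 are shown because the peaks met them in different ways. Capitals mark Sox matches and Sp matches (GGGCGG), read on both strands.
Pou5f1, chr17:35642782-35642981, + strand: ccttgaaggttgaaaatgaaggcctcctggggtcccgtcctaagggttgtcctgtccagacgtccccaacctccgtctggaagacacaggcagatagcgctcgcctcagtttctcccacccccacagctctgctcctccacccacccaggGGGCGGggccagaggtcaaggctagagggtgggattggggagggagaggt
Sox2, chr3:34548687-34548926, + strand: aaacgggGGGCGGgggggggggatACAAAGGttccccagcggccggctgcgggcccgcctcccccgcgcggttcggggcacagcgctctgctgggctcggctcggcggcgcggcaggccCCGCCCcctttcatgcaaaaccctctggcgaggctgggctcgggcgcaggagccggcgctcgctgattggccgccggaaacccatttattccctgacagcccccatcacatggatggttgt
Utf1, chr7:147129573-147129687, + strand: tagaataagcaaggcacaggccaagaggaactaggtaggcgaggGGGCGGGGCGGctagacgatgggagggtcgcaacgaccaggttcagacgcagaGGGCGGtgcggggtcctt
The stretch before Pou5f1 had no peak in any list, with a GC content of 62.5%. Those before Sox2, with 71.7% GC, and Utf1, with 63.5% GC, had peaks in all 3 lists. Of the starts in RefSeq, those of Pou5f1 lie at -5 and 2770 bp from the one used here, that of Sox2 at -10 and that of Utf1 at 67, as found by matching the RefSeq promoter sequences (GRCm38.p6) to mm9.

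Pou5f1 (ENSMUSG00000024406.9, chr17:35642982-35647721, + strand, mm9) kept all its ESC regions in both EPSC states, and the largest difference was a wider opening before the gene. Its window held 4 ESC peaks, 5 D-EPSC peaks and 4 L-EPSC peaks. All 4 of its regions with an ESC peak had peaks in all 3 lists, and the fifth, a peak of 212 bp at 20.7 kb in an intron of the neighbouring gene Cchcr1, was found in D-EPSCs alone. Over the genome, 33.2% of regions were in all 3 lists and 22.3% in D-EPSCs alone. Peaks covered 1160 bp of the 44.7 kb window in ESCs, 2682 bp for D-EPSCs and 2654 bp for L-EPSCs, which is 2.31 and 2.29 times the ESC value. The 2 EPSC states hardly differed from each other here.

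The region before Pou5f1 accounted for most of the excess over ESCs. In ESCs its peak was 436 bp wide and ran from -2231 to -1796, within the distal enhancer. In D-EPSCs the peak was 1437 bp wide and ran from -2240 to -804, and in L-EPSCs it was 1363 bp wide and ran from -2160 to -798. The far edge was nearly the same in all lists, while the edge on the side of the gene stood about 1 kb closer to the start in both EPSC lists. In a nominal distal enhancer window, -2.5 to -1.5 kb, peaks covered 436 bp in ESCs against 741 bp for D-EPSCs and 661 bp for L-EPSCs. In a nominal proximal enhancer window, -1.4 to -0.5 kb, they covered 0 bp for ESCs, 597 bp for D-EPSCs and 603 bp for L-EPSCs. The proximal enhancer was hence under a peak in the EPSC lists and not in the ESC list. Across all genes, 2.59%, 4.68% and 4.22% had a peak in a window at the distal position in ESCs, D-EPSCs and L-EPSCs, and 10.6%, 17.2% and 15.6% at the proximal position.

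The other Pou5f1 regions changed less between D-EPSCs and ESCs. At -15.5 kb the peaks were 176 bp wide for ESCs, 266 bp for D-EPSCs and 234 bp for L-EPSCs. At 3.7 kb, inside an intron and close to the start of another coding transcript, they were 194, 249 and 558 bp wide, so that here L-EPSCs stood apart. This wider L-EPSC peak was the only one over an octamer, ATGCAAAT, the element that Oct4 can bind alone, at 3946 bp. At 11.0 kb, over the shared start of Tcf19 and Cchcr1, the widths were 354, 518 and 499 bp.

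**Figure D1:**
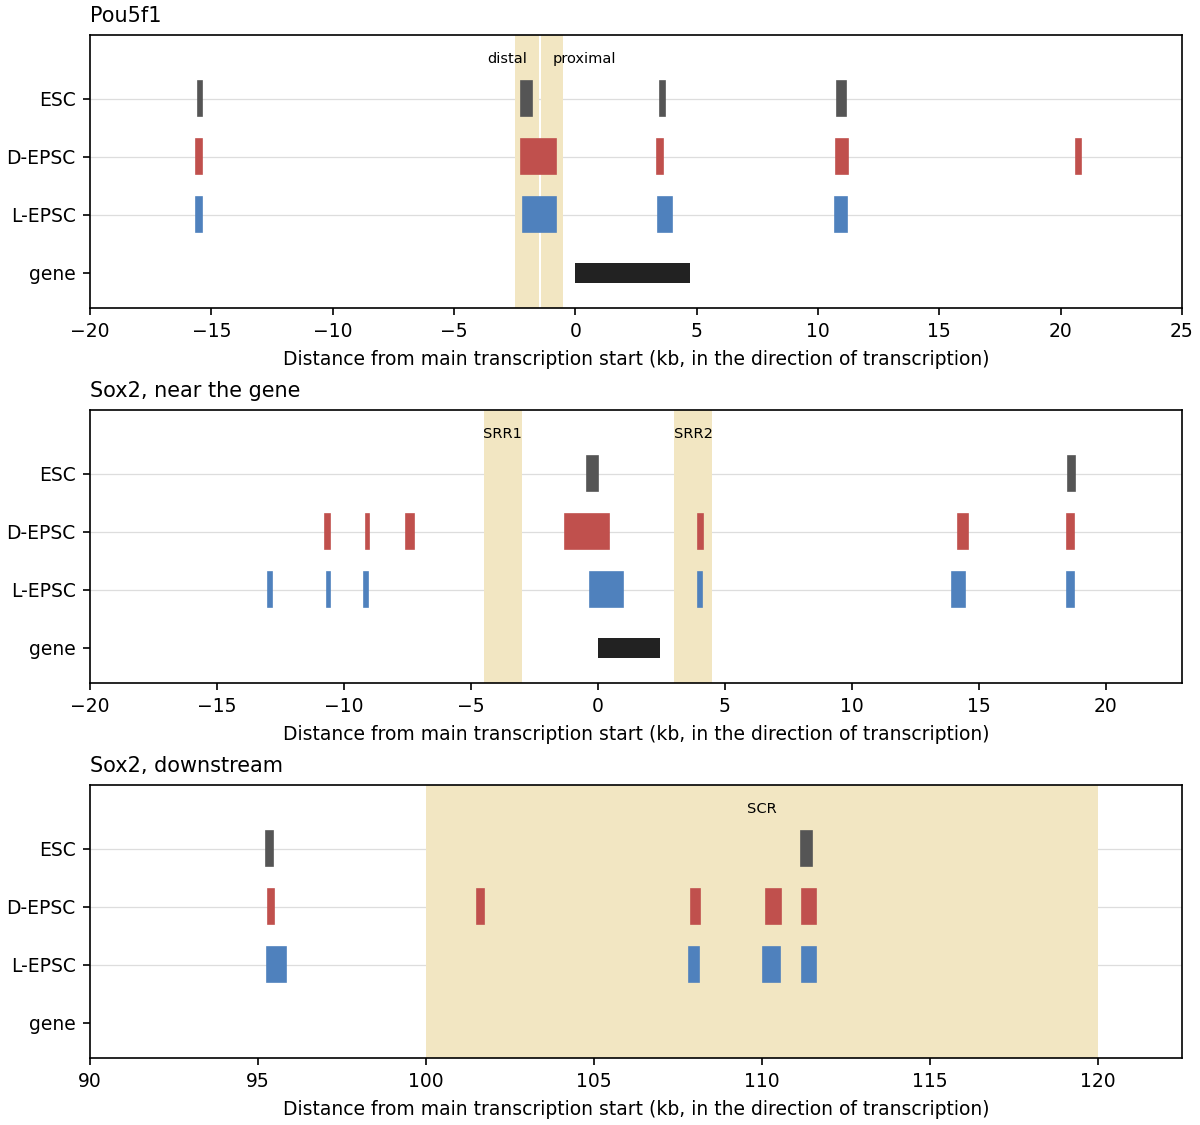
Peaks of ESCs, D-EPSCs and L-EPSCs (bars, 1 row per list) along Pou5f1 and Sox2, plotted by distance in kb from the main transcription start, with the gene as a black bar and nominal enhancer windows shaded. The peak before Pou5f1 reaches from the distal into the proximal window in both EPSC lists, and Sox2 has peaks at SRR2 and most of its SCR peaks in the EPSC lists; a D-EPSC peak of Sox2 at 42.4 kb lies outside the panels.

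Sox2 (ENSMUSG00000074637.3, chr3:34548927-34551383, + strand, mm9) had the highest ratios of EPSC to ESC open chromatin of the 4 genes. Its 142.0 kb window held 4 ESC peaks, 13 D-EPSC peaks and 11 L-EPSC peaks. Peaks covered 1274 bp for ESCs, 5135 bp for D-EPSCs and 4523 bp for L-EPSCs, or 4.03 and 3.55 times the ESC value. Of its 14 regions, 4 had a peak in all 3 lists, 6 in both EPSC lists only, 3 in D-EPSCs only and 1 in L-EPSCs only, classes that took 33.2%, 18.4%, 22.3% and 15.8% of all regions. No region of Sox2 had an ESC peak without a peak in both EPSC lists.

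At the Sox2 start the ESC peak was 430 bp wide and ran from -442 to -13, ending just before the gene. The D-EPSC peak was 1736 bp wide and ran from -1300 to 435, and the L-EPSC peak was 1301 bp wide and ran from -302 to 998. Both covered the start, but that of D-EPSCs reached further upstream and that of L-EPSCs further into the gene. The D-EPSC peak was wider than 99.5% of the peaks of its list and the L-EPSC peak wider than 97.9%, while the ESC peak was wider than 59.3% of its list.

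Of the regulatory regions near Sox2, SRR1 (-4.5 to -3.0 kb) had no peak in any list. SRR2 (3.0 to 4.5 kb) had none in ESCs, a peak of 211 bp in D-EPSCs and a peak of 174 bp in L-EPSCs, and both of these held the Oct-Sox match. These were narrow peaks, wider than 24.9% and 16.8% of their lists. A peak in a window at this position was found for 2.19%, 4.36% and 4.00% of all genes in the 3 lists. Further regions in both EPSC lists only lay at -10.6, -9.1 and 14.3 kb within introns of Sox2ot, the long non-coding RNA gene that spans Sox2. Their widths were 205 and 121 bp, 119 and 156 bp, and 401 and 520 bp in D-EPSCs and L-EPSCs. The narrowest of them, at -9.1 kb, held the core of the CTCF element (AGGGGGCGC) under both peaks. The D-EPSC peak of 119 bp and the L-EPSC peak of 121 bp were near the smallest widths of their lists, 117 and 118 bp.

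The SCR of Sox2, 100 to 120 kb downstream, held 1 ESC peak, 4 D-EPSC peaks and 3 L-EPSC peaks. Peaks covered 341 bp of it for ESCs, 1358 bp for D-EPSCs and 1247 bp for L-EPSCs. The ESC peak, at 111.4 kb, was met by peaks of 425 bp for D-EPSCs and 422 bp for L-EPSCs and was thus shared with a similar width. The regions at 108.0 kb (267 and 310 bp) and 110.3 kb (442 and 515 bp) had peaks in both EPSC lists only, and that at 101.6 kb (224 bp) in D-EPSCs only. A window of this size and place held a peak for 32.6%, 46.1% and 43.7% of all genes in the 3 lists, so the presence of a peak in it is common.

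The sequence common to both EPSC peaks at 108.0 kb is shown because it holds the only Esrrb match (TCAAGGTCA, in capitals) among the 37 regions. Esrrb is an orphan nuclear receptor of the naive pluripotency network.
Sox2 SCR, chr3:34656814-34657065, + strand: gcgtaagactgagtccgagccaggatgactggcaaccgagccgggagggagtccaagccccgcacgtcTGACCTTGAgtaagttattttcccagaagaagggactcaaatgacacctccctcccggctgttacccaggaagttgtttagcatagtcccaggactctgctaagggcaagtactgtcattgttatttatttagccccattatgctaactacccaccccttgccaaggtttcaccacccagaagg
The match (chr3:34656882-34656890, - strand) was under the peaks of D-EPSCs and L-EPSCs. The region at 110.3 kb held a Sox match and a Zfp281 match under both EPSC peaks. In the region at 111.4 kb a Sox match lay under the EPSC peaks and beyond the end of the ESC peak.

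The remaining Sox2 regions were in all lists or in a single one. At 18.6 kb the peaks were 282 bp wide for ESCs, 289 bp for D-EPSCs and 260 bp for L-EPSCs, nearly the same. At 95.5 kb they were 221, 161 and 582 bp wide, so that D-EPSCs had less than ESCs and L-EPSCs more. A match to the Stat element (TTCCNGGAA), read by the factor downstream of LIF, lay there under the ESC peak, across the edge of the L-EPSC peak and outside that of D-EPSCs. D-EPSCs alone had peaks at -7.4 and 42.4 kb, of 317 and 338 bp, and L-EPSCs alone had a peak of 162 bp at -12.9 kb.

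Utf1 (ENSMUSG00000047751.8, chr7:147129688-147131011, + strand, mm9) was open at its start and at its 3′ enhancer in all 3 states. Its window held 5 ESC peaks, 7 D-EPSC peaks and 5 L-EPSC peaks, which covered 1084, 3520 and 2011 bp, or 3.25 and 1.86 times the ESC value in the EPSC states. Here D-EPSCs stood apart from L-EPSCs more than at the other genes. At the start the peaks were of like width, 303 bp for ESCs, 330 bp for D-EPSCs and 392 bp for L-EPSCs, and each covered the start. At the 3′ enhancer the ESC peak was 128 bp wide, the smallest width in the ESC list, against 323 bp for D-EPSCs and 164 bp for L-EPSCs. A peak in a window at this position, 1.4 to 2.4 kb, was found for 2.14%, 4.84% and 4.33% of all genes.

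The widest peaks near Utf1 lay at 6.5 kb, beside the start of the long non-coding RNA gene Gm16201. They were 357 bp wide for ESCs, 1086 bp for D-EPSCs and 1043 bp for L-EPSCs. At -13.0 kb, over a coding exon and intron of Kndc1, ESCs had 2 peaks with 296 bp together, D-EPSCs 1 peak of 745 bp and L-EPSCs 1 peak of 225 bp. The region at -3.1 kb, over a UTR of Kndc1, had peaks of 253 and 187 bp in D-EPSCs and L-EPSCs and none in ESCs. D-EPSCs alone had peaks of 304 bp at -6.7 kb and 479 bp at 15.1 kb.

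Sall4 (ENSMUSG00000027547.11, chr2:168573832-168593443, - strand, mm9) had the fewest regions with a peak in all 3 lists. Its window held 6 ESC peaks, 7 D-EPSC peaks and 9 L-EPSC peaks, which covered 1335, 3965 and 3522 bp, or 2.97 and 2.64 times the ESC value. Of its 11 regions, 2 had a peak in all 3 lists (33.2% of all regions) and 4 in both EPSC lists only (18.4%). Of the others, 2 were in ESCs and L-EPSCs (2.92% of all regions), 1 in ESCs and D-EPSCs (2.3%), 1 in ESCs alone (5.12%) and 1 in L-EPSCs alone (15.8%). With so few regions these counts give no order between Sall4 and the genome.

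At the main start of Sall4 the peaks were 305 bp wide for ESCs, 1023 bp for D-EPSCs and 526 bp for L-EPSCs. They began at -148, -183 and -155 and ended at 156, 839 and 370, so that the EPSC peaks reached further into the gene while the upstream edge stayed in place. A Stat match at 423 was under the D-EPSC peak alone. A second region at 2.1 kb, near the start of another coding transcript, had peaks of 901 bp for D-EPSCs and 381 bp for L-EPSCs and none in ESCs. In the other direction, a peak of 337 bp at 16.8 kb, in a coding exon of Sall4, was the only one of the 37 regions found in ESCs alone.

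Upstream of Sall4, the region at -13.3 kb had a peak of 938 bp for D-EPSCs and 244 bp for L-EPSCs, and that at -10.0 kb had peaks of 170 and 210 bp. Neither had an ESC peak. The smaller region at -2.2 kb, of 135 bp in ESCs and 118 bp in D-EPSCs, held 2 Sox matches and no L-EPSC peak. Both widths were near the smallest of their lists, 128 and 117 bp. Within the gene, peaks at 5.9 kb were 170 bp wide in ESCs and 260 bp in L-EPSCs. An L-EPSC peak of 118 bp, the smallest width in its list, lay at 11.7 kb. Past the end of the gene, at 25.5 kb, a start of Atp9a had peaks of 220, 663 and 1039 bp in ESCs, D-EPSCs and L-EPSCs. At 33.0 kb, over a UTR and another coding start of Atp9a, a D-EPSC peak of 152 bp met an L-EPSC peak of 373 bp without an ESC peak. At 37.1 kb, in an intron of Atp9a, an ESC peak of 168 bp met an L-EPSC peak of 371 bp without a D-EPSC peak.

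**Figure D2:**
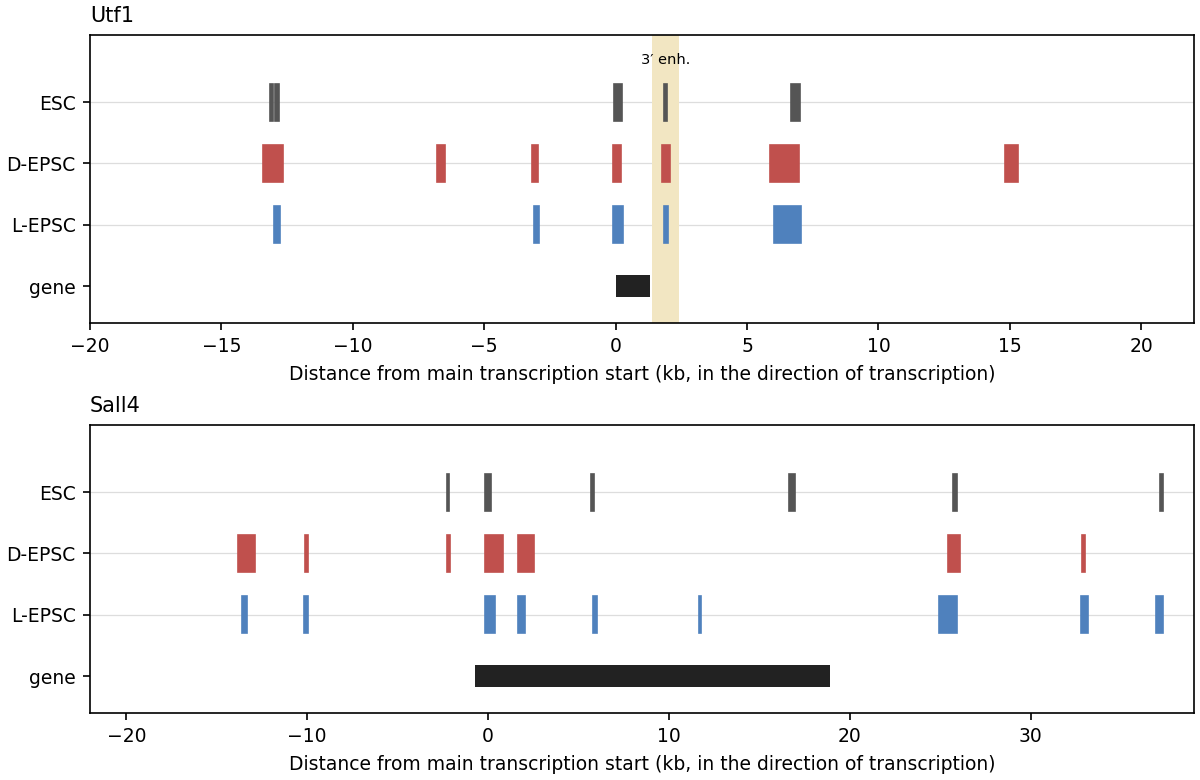
Peaks of ESCs, D-EPSCs and L-EPSCs (bars, 1 row per list) along Utf1 and Sall4, plotted by distance in kb from the main transcription start in the direction of transcription, with the gene as a black bar and the nominal Utf1 3′ enhancer shaded. Utf1 has a peak of each list at its start and at its enhancer, and Sall4 has a peak of each list at its start, widest in D-EPSCs (1023 bp).

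Taken over the 4 genes, the lists differed more in bases covered than in the number of peaks. The EPSC windows held 1.68 (D-EPSCs) and 1.53 (L-EPSCs) times as many peaks as those of ESCs, close to the ratios of the whole lists, 1.73 and 1.61. Bases under peaks were 4853 for ESCs, 15302 for D-EPSCs and 12710 for L-EPSCs, which is 3.15 and 2.62 times the ESC value, where the whole lists gave 1.86 and 1.67. The ESC peaks of the 4 genes were narrow, with a median of 221 bp against 369 bp over their list. Those of D-EPSCs had a median of 320 bp against 364 bp, and those of L-EPSCs 371 bp against 358 bp. When each list was cut to its 28965 widest peaks, the number in the ESC list, the windows held 19 peaks of ESCs, 17 of D-EPSCs and 16 of L-EPSCs. This setting trims the EPSC lists only. With the widest 50% of each list kept, the windows held 2 peaks of ESCs, 13 of D-EPSCs and 15 of L-EPSCs, so the ratio of peak numbers depended on how the lists were trimmed. With every peak set to 400 bp around its midpoint, the bases covered were 7409, 12800 and 11600, a smaller gap than with the deposited widths. At a fixed width the bases largely follow the number of peaks. The ratios of peak numbers, 1.68 and 1.53, were not above those of the whole lists, 1.73 and 1.61. The excess in bases of the 4 genes together over the whole lists thus depended on the called widths. Bases of the whole lists at 400 bp per peak are not given here.

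The genes were also set beside all others in the plain window of 20 kb on either side. In this window Sox2 had 712 bp under peaks in ESCs, 3278 bp for D-EPSCs and 2694 bp for L-EPSCs. The ESC value was near the median of all genes (718 bp), while 89.6% and 85.7% of genes had fewer bases than Sox2 in D-EPSCs and L-EPSCs. Among the 16790 genes with any bases in ESCs, the median ratio to ESCs was 1.73 in D-EPSCs and 1.56 in L-EPSCs. The ratios of Sox2, 4.60 and 3.78, were higher than those of 93.6% and 93.3% of these genes. Those of Pou5f1 were higher than 70.7% and 77.5%, those of Utf1 than 86.1% and 64.3%, and those of Sall4 than 82.8% and 83.8%. All 4 genes were above the median gene in both EPSC states, though many other genes were further from it. These ratios used the called widths, and no comparison with all genes at a fixed width is given here.

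**Figure D3:**
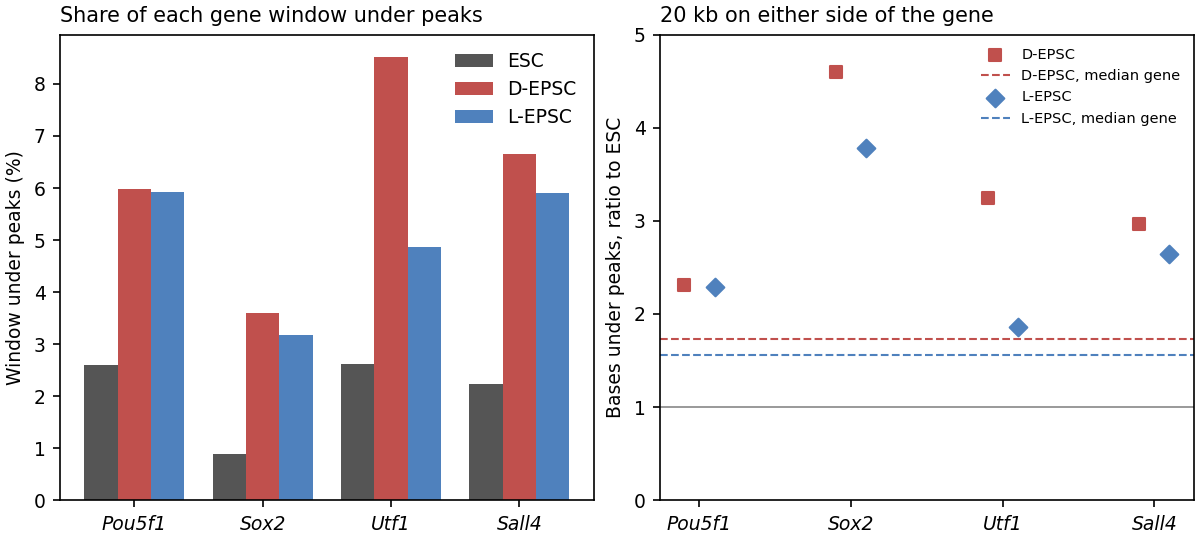
Left, the share (%) of each gene window under peaks of ESCs, D-EPSCs and L-EPSCs. Right, bases under peaks within 20 kb of the gene as a ratio to ESCs (points), with the median over 16790 genes as dashed lines (1.73 and 1.56) and a grey line at 1; each point is above its line, Sox2 most (4.60 and 3.78).

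Regions were then grouped by the lists that had a peak in them. Of the 37 regions, 14 were in all 3 lists (37.8%, against 33.2% of all regions) and 11 in both EPSC lists only (29.7%, against 18.4%). D-EPSCs alone had 6 (16.2%, against 22.3%), L-EPSCs alone 2 (5.41%, against 15.8%) and ESCs alone 1 (2.70%, against 5.12%). An ESC peak was in 18 regions, where 43.5% of all regions had one, and 17 of these (94.4%) had an EPSC peak too, against 88.2% of all regions with an ESC peak. An EPSC peak without an ESC peak was in 19 regions (51.4%), against 56.5% of all regions. Of the shares by class, that of both EPSC lists was above the background in each of the 8 alternative settings, from 11.1% against 9.03% with the lists cut to equal length (3 of 27 regions) to 44.4% against 19.2% among the widest 50% of each list (8 of 18). The share in all 3 lists was below that of all regions in 6 of the 8, such as 31.0% against 33.2% with windows of 50 kb. The share with an EPSC peak and no ESC peak was above it in 3, at 62.1% against 56.5% with the same windows, 57.6% against 54.2% without peaks of up to 168 bp, and 88.9% against 56.6% among the widest 50% of each list (16 of 18 regions). ESCs alone were above it in 2 of the 8 (18.5% against 16.2% at equal length and 15.7% against 11.5% at a reciprocal overlap of 50%), D-EPSCs alone in 2, and L-EPSCs alone in 1 (27.8% against 15.6% among the widest 50%, 5 of 18 regions). This is a description of 37 regions, of which 14 are from Sox2 alone. Of the 11 regions in both EPSC lists only, 6 were at Sox2, 4 at Sall4, 1 at Utf1 and 0 at Pou5f1. The 8 settings draw on largely the same peaks and are not independent of each other.

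**Figure D4:**
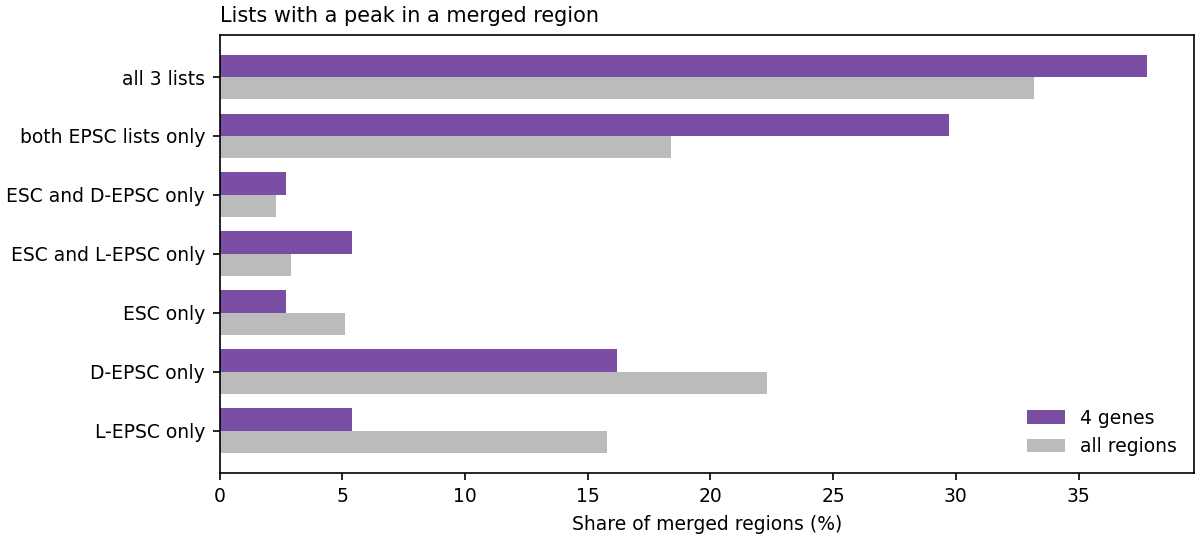
Share (%) of merged regions by the lists that had a peak in them, for the 37 regions of the 4 genes (purple) and all 65518 regions (grey). The bar for both EPSC lists only is 29.7% against 18.4%, and the bars for a single list are shorter for the 4 genes than for all regions.

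In the 14 regions with a peak in all 3 lists, the EPSC peaks were mostly wider. D-EPSC peaks covered more bases than ESC peaks in 13 of them, where 72.1% of all such regions did so, L-EPSC peaks in 12 (70.2%) and both in 11 (59.5%). The median ratio to ESCs was 1.95 in D-EPSCs and 1.56 in L-EPSCs, where the medians of all 21752 shared regions were 1.26 and 1.22. Ratios above 3 in D-EPSCs were at the Sox2 start (4.04, and 3.03 in L-EPSCs), the Sall4 start (3.35 and 1.72), the Pou5f1 enhancers (3.30 and 3.13), the Utf1 region at 6.5 kb (3.04 and 2.92) and the Atp9a start at 25.5 kb from Sall4 (3.01 and 4.72). The exceptions were Sox2 at 95.5 kb in D-EPSCs (0.729) and, in L-EPSCs, Sox2 at 18.6 kb (0.922) and Utf1 at -13.0 kb (0.760).

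**Figure D5:**
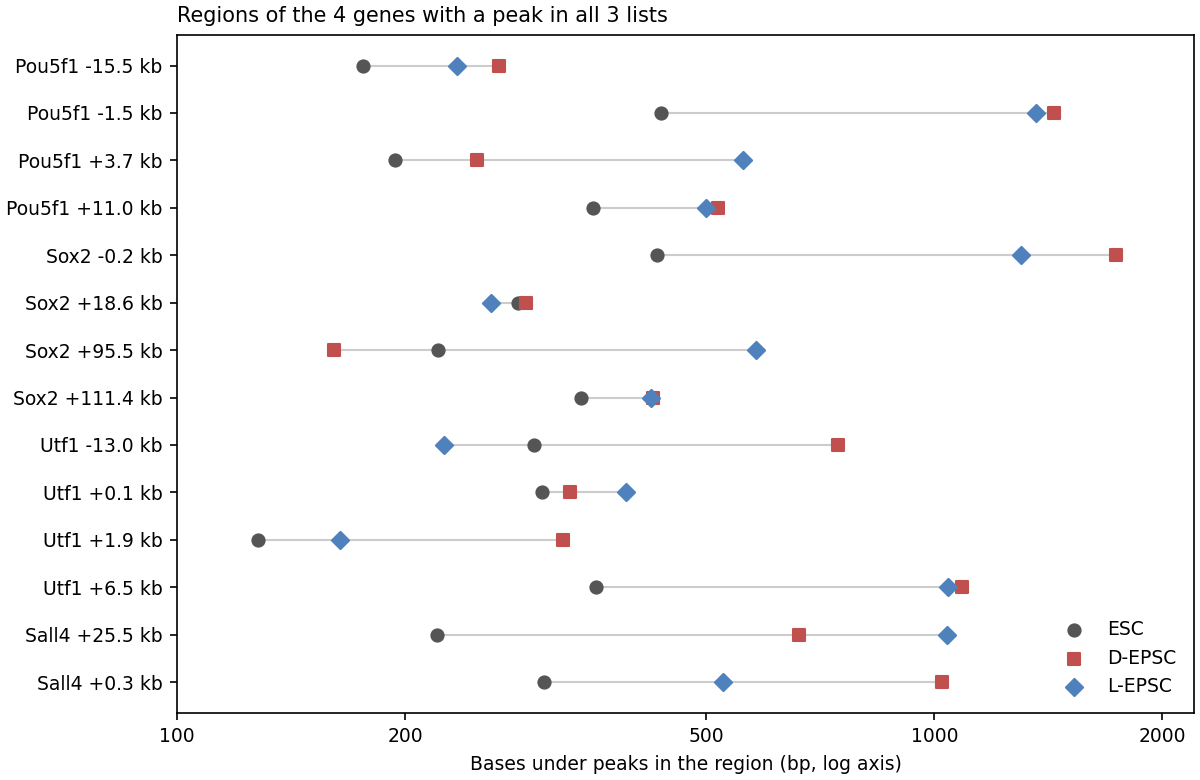
Bases under peaks (bp, log axis) in ESCs (circles), D-EPSCs (squares) and L-EPSCs (diamonds) for the 14 regions of the 4 genes with a peak in all 3 lists, each named by gene and distance of its midpoint from the main start. The ESC circle is the leftmost point in 11 of the 14 regions.

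The sequence of the regions was read in 400 bp around the midpoints, which reaches past the edges of narrow regions. Over all 37, the median GC content was 53.2% and the median ratio of observed to expected CpG 0.369, against 52.5% and 0.292. In the 14 regions of all 3 lists these were 55.2% and 0.345, against 57.8% and 0.545 for all regions of this kind. An Oct-Sox match was in 2 of these windows (5.41%, against 2.06% of all regions), and the third, in the enhancer of Pou5f1, lay outside the middle 400 bp of its wide region. Sox matches were in 13 (35.1%, against 22.5%), and Sp matches in 11 (29.7%, against 30.8%). Klf matches (GGGNGTGGC) were in 3 windows (8.11%, against 6.76%), Zfp281 matches in 3 (8.11%, against 7.84%), CTCF core matches in 2 (5.41%, against 2.05%), Stat matches in 2 (5.41%, against 1.51%), TCF/LEF matches (CTTTGAT) in 2 (5.41%, against 4.88%), though within the bounds of just 1 region, and the Esrrb match in 1 (2.70%, against 1.47%). The octamer (2.85% of all regions) and a direct repeat of AGGTCA spaced by 5 bases, read by retinoic acid receptors (0.0504%), were in none. With so few regions, shares of 1 or 2 matches give no order among the elements. Searched over their whole length, 17 regions held a Sox match (45.9%, against 24.5% of all whole regions), 13 an Sp match (35.1%, against 32.9%) and 7 a Zfp281 match (18.9%, against 9.92%). A CTCF core match was in 4 (10.8%, against 2.92%), an Oct-Sox match in 3 (8.11%, against 2.21%) and the octamer in 1 (2.70%, against 3.19%). In the same search, 3 held a Klf match (8.11%, against 8.52%) and 2 a Stat match (5.41%, against 1.78%). A TCF/LEF match was in 1 (2.70%, against 5.26%), the Esrrb match in 1 (2.70%, against 1.65%) and the direct repeat in none (0.0412%). The wide region before Pou5f1 held 3 Zfp281 matches.

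Other genes of the pluripotency network also had start peaks more numerous in the EPSC lists, as genes in general did. Of 30 network genes, a peak within 1 kb of a start was found for 19 by the ESC list, 28 by the D-EPSC list and 26 by the L-EPSC list. The background shares were 51.5%, 63.4% and 60.8%. The calls were the same in all 3 lists for 20 genes, with 18 called in each and Dppa3 and Dppa4 in none. The share of all protein-coding genes with the same call in all 3 lists is not given here, so this agreement has no background. A start peak was found in both EPSC lists only for 8 of the 30 genes, against 9.16% of all protein-coding genes. These were the homeobox genes Nanog and Otx2, the nuclear receptor genes Esrrb and Nr0b1, the signalling genes Tdgf1 and Gdf3, Dppa2 and Mycn. Lefty1, an antagonist of Nodal, had one in D-EPSCs only (3.33% of all genes), and Tcl1, a coactivator of Akt, in ESCs and D-EPSCs.

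Start peaks were also counted in the POU, SOX and SALL families of Pou5f1, Sox2 and Sall4, to be read against the same shares of all genes (51.5%, 63.4% and 60.8% by list, 9.16% in both EPSC lists only and 3.33% in D-EPSCs only). Of 12 other POU genes, 6 had a start peak in the ESC list, 11 in that of D-EPSCs and 10 in that of L-EPSCs. Pou2f2, Pou3f1, Pou3f3 and Pou6f1 had one in both EPSC lists only, and Pou3f4 in D-EPSCs only. Of the 17 other SOX genes in the annotation, 6, 14 and 11 had one. Sox7, Sox8, Sox9, Sox13 and Sox18 had one in both EPSC lists only, and Sox3, Sox5 and Sox6 in D-EPSCs only. Of the SALL genes, Sall1 and Sall2 had one in each list and Sall3 in both EPSC lists only. Many of these genes are known from other tissues, such as Sox9 in cartilage and Sox18 in vessels.

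The genes most like each of the 4 were sought by the bases covered in ESCs, D-EPSCs and L-EPSCs within 20 kb, as the distance in log2(bases + 100) over the 3 lists. Those nearest to Sox2 were Git1 (705, 3334 and 2587 bp) and Nek6 (739, 3322 and 2585 bp). Mycn (1017, 3580 and 1950 bp) and Ttll12 were nearest to Utf1, Tmem189 and Setd2 to Pou5f1, and Faah and Clip2 to Sall4. The distances ran from 0.0391 to 0.102, so genes with nearly the same 3 values exist for each.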

How the data were processed

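Per the labels and the study's methods, the authors trimmed paired reads with Trim Galore 0.6.3, aligned them to mm9 with bowtie2 2.3.5, filtered for well-mapped proper pairs (samtools 1.10) and ran MACS with defaults to call peaks. How replicates were pooled, and whether duplicates, the Tn5 shift and blacklisted regions were treated, is not given in the sources used here. Unremoved duplicates or unequal depth would alter the number of weak peaks and the width of peaks, and a missing shift would move edges by a few bases. The deposited values, 1 list per state, are other than counts or signal: each peak's start and end in bp, with its chromosome and name. Chromosomes 1 to 19 and the sex chromosomes were kept.

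Genes came from GENCODE M1 on NCBIM37 (mm9), and starts were those of coding transcripts. Tfcp2l1 was matched under its older symbol Tcfcp2l1, and Sox1 was not analysed here. Peaks sharing at least 1 bp were merged. The genes, gene lists, enhancer windows (nominal, from general knowledge) and motifs were chosen with earlier results of these data known. Named were the 4 genes with all their peaks, genes with a start within 1 kb of these peaks, listed genes whose start call differed between lists, and the 2 genes nearest to each of the 4 in bases covered and over 200 kb away. Motifs were matched without mismatch on both strands. The alternatives concerned the window, the length of the lists, the peak width, the overlap and the start distance. The software was Python 3.11.15, matplotlib 3.10.9, pandas 2.3.3 and numpy 2.4.6, and overlaps were checked on simulated data against bedtools 2.31.1. A further sequence is not reported here.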

Additional observations from a re-analysis of the deposited data

How the results depend on the processing

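No paired analysis was possible because each state has 1 pooled list and no value per replicate, which also kept replicates from being left out in turn. Of 95 values under alternative settings, 74 stayed within 1.5 times the reported one (for width ratios, within 1.5-fold) and 21 moved further. Windows of 50 kb held 58 regions, 36 of them with an EPSC peak and no ESC peak (62.1%, against 56.5% of all regions). Among the 28965 widest peaks of each list, the windows held 17 peaks in D-EPSCs and 16 in L-EPSCs, and the regions numbered 8 in all 3 lists (29.6%, against 36.7% of all regions in this setting), 3 in both EPSC lists only (11.1%, against 9.03%), 9 with an EPSC peak and no ESC peak (33.3%, against 35.9%), and 5 in ESCs alone (18.5%, against 16.2%). Among the widest 50% of each list they held 2 peaks of ESCs, 13 of D-EPSCs and 15 of L-EPSCs, in 18 regions, 2 in all 3 lists (11.1%, against 31.8%), 16 with an EPSC peak and no ESC peak (88.9%, against 56.6%), 5 in L-EPSCs alone (27.8%, against 15.6%) and 0 in ESCs alone (against 5.80%). Requiring a reciprocal overlap of 50% left 7 regions in all 3 lists (13.7%, against 19.9%), 32 with an EPSC peak and no ESC peak (62.7%, against 63.4%) and 8 in ESCs alone (15.7%, against 11.5%). With peaks set to 400 bp, bases covered in ESCs were 7409 and 2 regions were in ESCs alone (5.13%, against 5.67%). Over whole regions, octamer matches were in 1 region (2.70%, against 3.19% of all whole regions) and Zfp281 matches in 7 (18.9%, against 9.92%). The cause of these differences was not tested. Leaving out peaks up to 168 bp wide, the most common narrow width of ESC peaks, was chosen after seeing the data, and kept every value within 1.5 times, though the share with an EPSC peak and no ESC peak then stood above that of all regions (57.6%, against 54.2%). Start peaks of the 4 genes stayed at 4 of 4 in every list when any coding start was used, within 1 or 2.5 kb, by the peak midpoint and at equal list length, but not with the main start alone. Depth is unknown, so a missing peak is a peak not called and not closed chromatin.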

Other observations

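Peaks of the 4 gene windows also lay at the starts of neighbouring genes. Near Pou5f1, a peak of each list was within 1 kb of the starts of Tcf19 and Cchcr1. Near Sox2, starts of Sox2ot and of the microRNA gene Mir1897 were near peaks of D-EPSCs and L-EPSCs but of no ESC peak. Near Utf1, the start of Gm16201 had a peak in each list, and those of Mir202 and Gm2044 in D-EPSCs only. Near Sall4, the start of the lincRNA gene Gm14261 shared the peaks of the Sall4 start. Atp9a had a peak in each list at its start at 25.5 kb, and in both EPSC lists only at that at 33.0 kb. At starts that lie this close together, a peak cannot be given to one gene or the other.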
